A study of Mus musculus with 4 samples.

Results

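Smooth muscle contractile genes encode the filaments, anchors and regulators with which the muscle layers of the colon wall shorten. The set described here holds 10 genes, taken by symbol from the 24016 genes of the deposited table. The rule uses no measured value, but the set was proposed with earlier results of these data known. It comprises the actins Acta2 and Actg2, the myosin heavy chain Myh11, the filament-binding genes Tagln, Cnn1, Smtn and Lmod1, the anchoring genes Des and Synpo2, and the coactivator Myocd. All 10 were found, and each is listed at 1 place in the genome. They were measured by RNA sequencing of colon from germ-free C57BL/6 mice aged 7 weeks, bought from Taconic, in 4 libraries with 1 library per condition. One library came from untreated mice. The others came from mice gavaged orally with the vehicle phosphate-buffered saline (PBS), the gut bacterium Escherichia coli (E. coli) or the probiotic Lactobacillus rhamnosus GG (LGG), with the same labelled dose for both bacteria. Colon pieces of 4 cm were frozen 4 h after gavage from groups of 4 mice. The labels give neither the number of untreated mice nor the position of the piece along the colon, and they do not say whether RNA of several mice was pooled.

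In smooth muscle, calcium entry activates myosin light chain kinase, phosphorylated myosin pulls on actin filaments, and dense bodies and intermediate filaments pass the force to the cell membrane. Most genes of this apparatus are switched on by serum response factor, which binds CArG boxes in their promoters together with its coactivator myocardin. In the colon the contractile cells lie in the circular and longitudinal layers of the muscularis propria, in the muscularis mucosae and in vessel walls, so a piece of whole wall mixes their RNA with that of epithelium, nerves and connective tissue. In such bulk tissue, fewer muscle cells and less of a transcript per muscle cell cannot be told apart.

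The libraries held 16289580 (PBS) to 29899371 (LGG) assigned counts. Levels are given as CPM, a library's counts scaled to a common total with trimmed mean of M-values (TMM) factors, and as CPM per kb of listed transcript length where genes are compared with each other. A 95% counting interval was computed for each log2 ratio and is printed for many of them. It covers counting error only. With 1 library per condition no difference has a replicate check, no p-value is given, and "lower" and "higher" describe these libraries.

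The sequences of the 2 actins are shown first, because near-identical genes can trade reads and every statement on Acta2 and Actg2 depends on telling them apart. Their coding sequences (GENCODE M21 transcripts, build GRCm38) are identical at 84.4% of 1128 aligned bases, and the longest identical run is 29 bases. The start of the coding sequence (bases 1 to 90 of Acta2 and 1 to 87 of Actg2) differs at 16 of 90 aligned positions, which include a codon absent from Actg2. Capitals mark the bases that differ.
Acta2: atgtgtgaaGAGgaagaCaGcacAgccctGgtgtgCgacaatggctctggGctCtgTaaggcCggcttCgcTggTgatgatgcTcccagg
Actg2: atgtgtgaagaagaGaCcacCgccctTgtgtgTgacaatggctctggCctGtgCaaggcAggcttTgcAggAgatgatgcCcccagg

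The most alike stretch of 90 bases (898 to 987 in Acta2, 895 to 984 in Actg2) still differs at 9 positions, again in capitals.
Acta2: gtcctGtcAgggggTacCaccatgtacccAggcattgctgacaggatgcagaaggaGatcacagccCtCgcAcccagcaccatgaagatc
Actg2: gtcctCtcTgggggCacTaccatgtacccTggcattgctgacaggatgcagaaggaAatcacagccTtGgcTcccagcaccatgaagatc

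Over the whole GENCODE transcripts, none of the 1284 stretches of 50 bases in Actg2 occurs in a transcript of another gene. In Acta2 7 of 1986 do, shared with the cytoplasmic actin Actg1 and with pseudogene or predicted entries, and not with Actg2. In Myh11, 26 of 6165 stretches are shared with the non-muscle myosins Myh9 and Myh10. For Myocd the number was 1 of 5065, and for the other 6 genes it was 0. These transcripts can differ in length from those listed with the counts, as for Acta2 with 2035 and 2561 bases. Bases outside the GENCODE transcripts were not examined. The sources used here give no read length.

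The promoters are shown because most of the 10 genes are known targets of the same factor. RefSeq's promoter table (GRCm38.p6) held 6 of the 10 genes, namely Acta2, Cnn1, Smtn, Lmod1, Des and Synpo2. Within the 250 bases before the start, none of the 6 holds an exact CArG box, which 1.47% of the 32851 promoters in the table hold. Allowing 1 mismatch, Acta2 and Lmod1 hold 2 matches each, and 18.6% of all promoters hold at least 1. The motif reads the same on both strands, and the stretches around the matches lie at chr19:34255378-34255477 on the minus strand for Acta2 (positions -104 to -5 from the start) and at chr1:135324604-135324678 on the plus strand for Lmod1 (-209 to -135). Capitals mark the matches.
Acta2: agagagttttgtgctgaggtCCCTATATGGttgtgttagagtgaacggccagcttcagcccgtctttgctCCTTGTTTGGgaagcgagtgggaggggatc
Lmod1: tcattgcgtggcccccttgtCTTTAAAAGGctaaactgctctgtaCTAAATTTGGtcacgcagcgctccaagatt

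A match is a description of letters and says nothing of binding in these samples.

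Together the 10 genes took 1.34% of all assigned counts in the untreated library (exact 95% binomial interval 1.337 to 1.346), 1.157% in PBS (1.152 to 1.163), 1.060% in E. coli (1.056 to 1.064) and 1.145% in LGG (1.142 to 1.149). The sum was largest without gavage and smallest after E. coli, and no 2 of the intervals, which cover counting error only, overlapped. Single genes departed from this order, as the plot of levels by library shows.

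**Figure D1:**
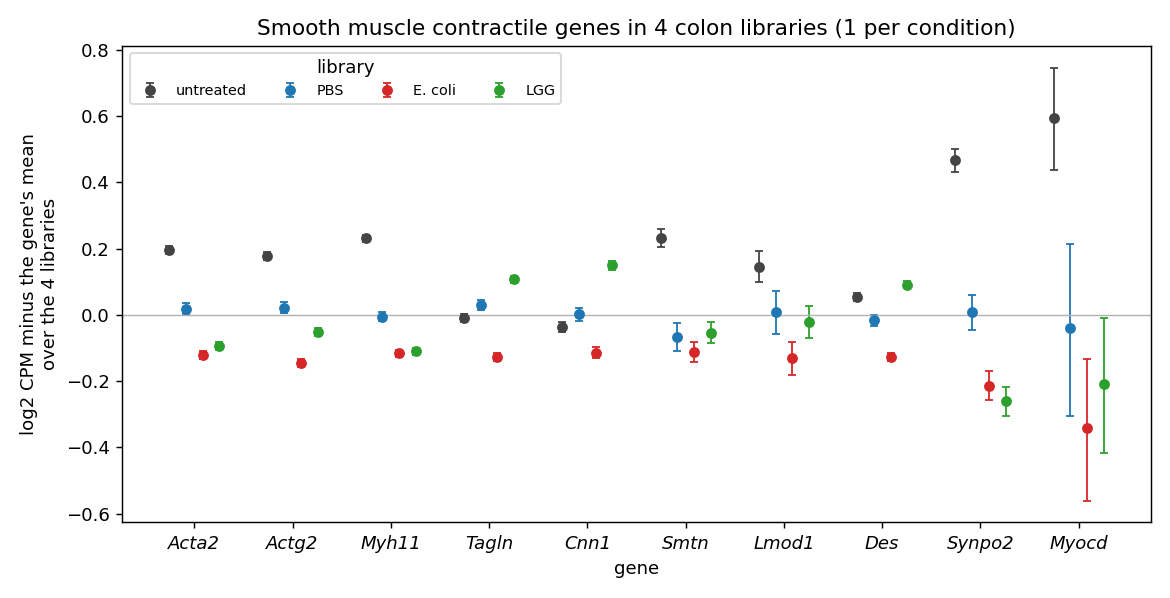
Level of each of the 10 genes in the 4 libraries, as log2 CPM minus the gene's own mean (vertical axis), with 1 point per library and bars for the exact 95% Poisson counting interval. The E. coli point is the lowest for 9 genes, the untreated point is the highest for 7, and the LGG point is the highest for Tagln, Cnn1 and Des.

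The actins form the thin filaments. Acta2, the alpha-actin of smooth muscle (NM_007392, chromosome 19, 34314826 to 34329863 in mm9, minus strand), was at 1961 CPM in the untreated library, 1734 in PBS, 1574 in E. coli and 1604 in LGG. Actg2, the gamma-actin typical of visceral muscle (NM_009610, chromosome 6, 83462903 to 83486245 in mm9, minus strand), was at 2095 CPM untreated, 1879.8 in PBS, 1675 in E. coli and 1787 in LGG. Both were highest in the untreated and lowest in the E. coli library, and each of the 4 levels stood apart from its neighbour beyond counting error. Per kb of transcript, Actg2 was the most abundant of the 10 genes, with a mean of 1426 CPM per kb against 671 for Acta2. Within each library, 1000 counts of Actg2 went with 936 counts of Acta2 in the untreated library (exact 95% interval 926 to 947), 922 in PBS (907 to 937), 939.8 in E. coli (928 to 952) and 898 in LGG (886 to 909). That ratio needs no scaling between libraries. It was lowest in the LGG library, whose interval overlapped that of PBS but not those of the untreated and E. coli libraries.

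The thick filament is built from Myh11, the smooth muscle myosin heavy chain (NM_013607, chromosome 16, 14194620 to 14291501 in mm9, minus strand). It was at 2929 CPM in the untreated library, 2487 in PBS, 2303 in E. coli and 2313 in LGG. The untreated library was highest, PBS came next, and the 2 bacterial libraries did not differ beyond counting error, at a log2 difference of 0.01 (-0.01 to 0.02). Per kb Myh11 had a mean of 381 CPM per kb, below both actins.

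Among the proteins that bind the thin filament, Tagln (transgelin or SM22-alpha, an actin-bundling protein; NM_011526, chromosome 9, 45737711 to 45744141 in mm9, minus strand) was at 1939 CPM untreated, 1991 in PBS, 1785 in E. coli and 2101 in LGG. Cnn1 (calponin 1, which binds actin and restrains myosin; NM_009922, chromosome 9, 21903697 to 21913665 in mm9, plus strand) was at 1149 CPM untreated, 1179 in PBS, 1088 in E. coli and 1306 in LGG. Unlike the actins, these genes were highest in the LGG library, and only the E. coli library lay below the untreated one. Smtn (smoothelin, an actin-binding protein of fully differentiated contractile cells; NM_001159284, chromosome 11, 3417525 to 3439295 in mm9, minus strand) was at 360.4 CPM untreated, 293 in PBS, 284 in E. coli and 296 in LGG. The untreated level stood apart, while that of PBS did not differ beyond counting error from its neighbours in the order, E. coli and LGG. Lmod1 (leiomodin 1, which nucleates actin filaments; NM_053106, chromosome 1, 137221390 to 137264642 in mm9, plus strand) was at 133 CPM untreated, 121 in PBS, 109.5 in E. coli and 118 in LGG. Here the PBS and LGG levels did not differ beyond counting error.

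Of the anchoring proteins, Des (desmin, the intermediate filament protein of muscle; NM_010043, chromosome 1, 75356867 to 75365154 in mm9, plus strand) was at 1972 CPM untreated, 1880.1 in PBS, 1741 in E. coli and 2026 in LGG. Its range was the narrowest of the 10 genes, at 1.16-fold between the highest and the lowest library. Synpo2 (synaptopodin 2 or myopodin, an actin-bundling protein of dense bodies and Z-discs; NM_080451, chromosome 3, 122779437 to 122939067 in mm9, minus strand) was at 242 CPM untreated, 176 in PBS, 151 in E. coli and 147 in LGG. It spanned 1.65-fold, the untreated library stood well above the rest, and E. coli and LGG overlapped. Synpo2 was the only gene of the 10 with its lowest level in the LGG library.

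Myocd (myocardin, the coactivator of serum response factor; NM_145136, chromosome 11, 64990072 to 65083491 in mm9, minus strand) was the least abundant gene, at 12.0 CPM untreated, 7.73 in PBS, 6.27 in E. coli and 6.87 in LGG. These levels rest on 342 counts in the untreated library, 124 in PBS, 182 in E. coli and 201 in LGG. Myocd spanned 1.91-fold, the widest range of the set. The 3 gavaged libraries lay within counting error of each other, and the untreated library stood apart from PBS, its neighbour in the order. Per kb the set ran from 1426 CPM per kb for Actg2 and 1237 for Tagln, through 671 for Acta2, 624 for Des, 597 for Cnn1 and 381 for Myh11, to 91.7 for Smtn, 30.5 for Lmod1, 25.2 for Synpo2 and 1.61 for Myocd.

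PBS against untreated sets the vehicle gavage beside no gavage. Of the 10 genes 8 were lower after PBS with the whole interval below 0, where 18.3% of the 14450 genes with a mean of at least 1 CPM were, and 2 were higher with the interval above 0, where 20.3% of all genes were. Myocd had the largest difference, at -0.63 (-0.94 to -0.33), followed by Synpo2 at -0.46 (-0.52 to -0.39), Smtn at -0.30 (-0.35 to -0.25) and Myh11 at -0.24 (-0.25 to -0.22). The actins were at -0.18 (-0.20 to -0.16) for Acta2 and -0.16 (-0.18 to -0.14) for Actg2, with Lmod1 at -0.14 (-0.22 to -0.06) and Des at -0.07 (-0.09 to -0.05). Tagln and Cnn1 were both at 0.04, with intervals of 0.02 to 0.06 and 0.01 to 0.06, and turned to -0.052 and -0.053 when library totals replaced TMM scaling. The median of the 10 was -0.17 beside 0.0015 for all genes. None passed a 2-fold rule (log2 ratio of at least 1 in size with an interval that excludes 0), which 1.45% of all genes passed, and Myocd alone was lower by 1.5-fold or more, as 3.55% of all genes were, and none was higher by that much, as 2.37% of all genes were.

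E. coli against PBS gave the most even picture. Every one of the 10 ratios was below 0, between -0.30 for Myocd (-0.64 to 0.04) and -0.05 for Smtn (-0.10 to 0.01), and the spread among the genes was the smallest of the 6 comparisons, at 0.26. The interval lay below 0 for 8 genes, all but those named, where 8.93% of all genes had such an interval, and above 0 for none, where 10% of all genes did. Synpo2 was at -0.22 (-0.29 to -0.15), Actg2 at -0.17 (-0.19 to -0.15) and Tagln at -0.16 (-0.18 to -0.14). Acta2, Lmod1, Cnn1, Des and Myh11 lay between -0.14 and -0.11. The median was -0.14, beside 0.0022 for all genes. No gene passed the 2-fold rule, which 0.415% of all genes passed, and none was past 1.5-fold, as 0.997% of all genes were on the lower and 0.471% on the higher side.

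LGG against PBS split the set. Synpo2 was lower after LGG, at -0.27 (-0.34 to -0.20), as were Acta2 at -0.11 (-0.13 to -0.09), Myh11 at -0.10 (-0.12 to -0.09) and Actg2 at -0.07 (-0.09 to -0.05). Cnn1 was higher, at 0.15 (0.12 to 0.17), with Des at 0.11 (0.09 to 0.13) and Tagln at 0.08 (0.06 to 0.10). Smtn at 0.01, Lmod1 at -0.03 and Myocd at -0.17 (-0.50 to 0.16) had intervals that included 0. So 4 genes had intervals below 0, where 13.1% of all genes did, and 3 above 0, where 14.3% did. Among genes with a mean of at least 50 CPM, which 9 members reach, 21.7% were below 0 and 25.6% above. The 3 above lay near that last share. The median was -0.05 beside -0.0026 for all genes. None passed the 2-fold rule, which 0.277% of all genes passed, or the 1.5-fold size, at 0.789% of all genes lower and 0.782% higher.

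LGG against E. coli leaves the PBS library out. In this pair 7 of 10 intervals were above 0, where 16.4% of all genes had such an interval, and none was below 0, where 16.2% did. The comparison shares the LGG library with that against PBS and the E. coli library with the one before it. The largest ratios were those of Cnn1 at 0.26 (0.24 to 0.28), Tagln at 0.24 (0.22 to 0.25) and Des at 0.22 (0.20 to 0.24). Lmod1 was at 0.11 (0.04 to 0.18), Actg2 at 0.09 (0.08 to 0.11), Smtn at 0.06 (0.01 to 0.10) and Acta2 at 0.03 (0.01 to 0.05). The intervals of Myh11 at 0.01, Synpo2 at -0.05 and Myocd at 0.13 included 0. The median was 0.10, beside -0.00022 for all genes. None passed the 2-fold rule, which 0.360% of all genes passed, or 1.5-fold, at 0.844% of all genes lower and 1.34% higher.

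The bacterial libraries were also set against the untreated one. These comparisons share the untreated library with each other and with the PBS comparison, so their values are given side by side and not as separate evidence. After E. coli all 10 intervals were below 0, where 22.4% of all genes had such an interval, and none above, where 24.9% were, and the median was -0.32 beside 0.0046 for all genes. After LGG 7 intervals were below 0, where 23.0% of all genes were, and 3 above, where 24.7% were, with a median of -0.26 beside -0.0015. Myocd was at -0.93 (-1.20 to -0.67) after E. coli and -0.80 (-1.06 to -0.55) after LGG. Synpo2 was at -0.68 (-0.73 to -0.62) and -0.73 (-0.78 to -0.67) in the same order. No other gene was past 1.5-fold in either library, where 5.48% of all genes after E. coli and 3.62% after LGG were lower by that much and 2.82% and 1.64% higher. Myh11 was at -0.35 and -0.34, Smtn at -0.34 and -0.28, Acta2 at -0.32 and -0.29, Actg2 at -0.32 and -0.23, and Lmod1 at -0.28 and -0.17. Des was at -0.18 after E. coli and 0.04 after LGG, Tagln at -0.12 and 0.12, and Cnn1 at -0.08 and 0.18, and with library totals the ratio of Des after LGG turned to -0.061 and that of Tagln was 0.016, with an interval that included 0, which left 1 interval above 0, that of Cnn1. No gene of the 10 passed the 2-fold rule, which 2.35% of all genes passed after E. coli and 1.04% after LGG.

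**Figure D2:**
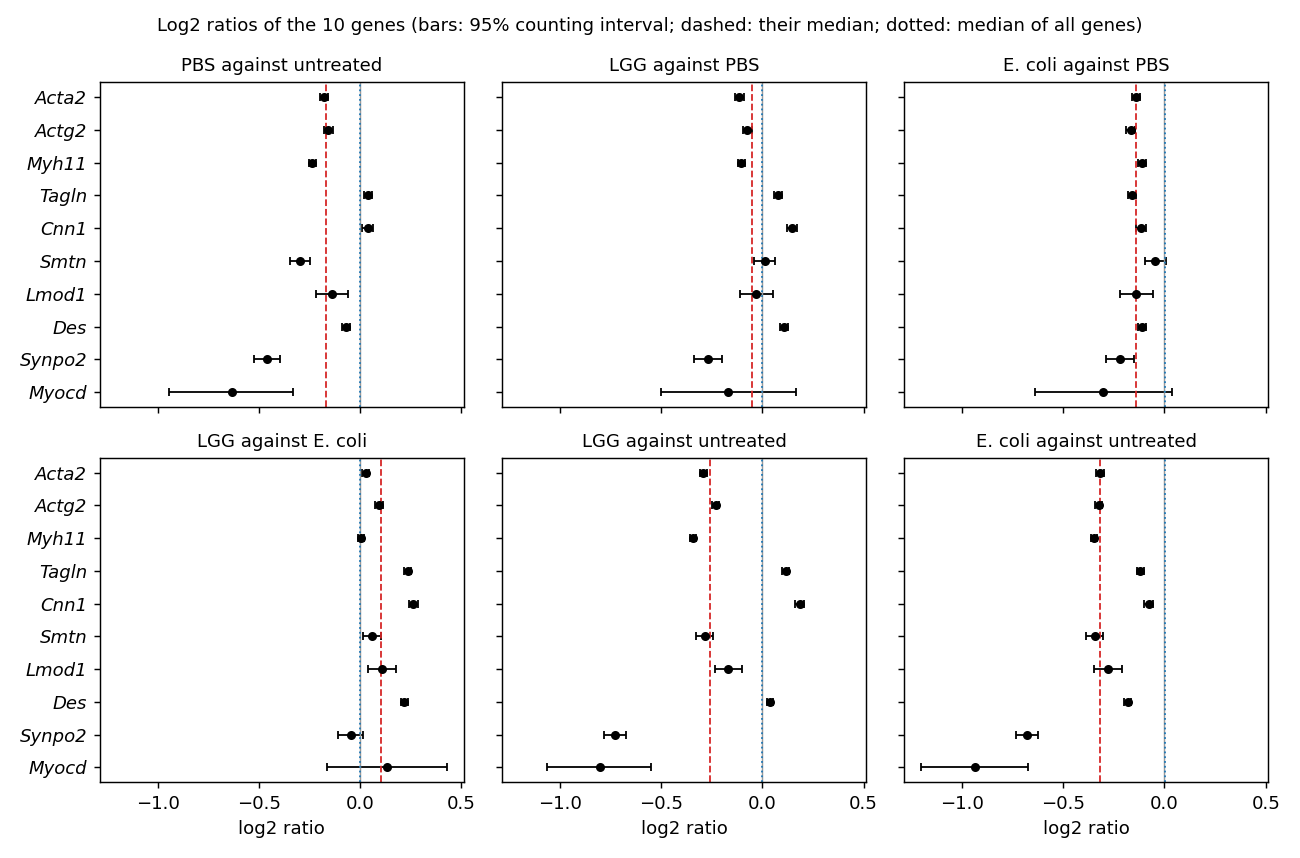
Log2 ratio of each gene (horizontal axis) in the 6 comparisons, with bars for the 95% counting interval, a dashed line at the median of the 10 genes and a dotted line at the median of all genes. All 10 points lie below 0 in E. coli against PBS and E. coli against untreated, while Tagln, Cnn1 and Des lie on the positive side in LGG against PBS, E. coli and untreated.

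Across the 4 libraries, 9 of the 10 genes had their lowest level in the E. coli library, where 21.4% of all genes did, and 7 had their highest in the untreated library, where 33.6% of all genes did. The 3 others, Tagln, Cnn1 and Des, were highest after LGG, as 24.0% of all genes were. Synpo2, the exception to the first count, was lowest after LGG, as 23.6% of all genes were. Among the 4605 genes with a mean of at least 50 CPM, which Myocd does not reach, 8 of the 9 remaining members were lowest after E. coli, beside 15.5% of those genes. Of the 9 members 6 were highest untreated, beside 21.5%, and 3 highest after LGG, near the share of 31.5%. In LGG against untreated 3 intervals were above 0 and 6 below, beside 46.0% and 21.2% of those genes. In LGG against E. coli 7 were above and 0 below, beside 27.1% and 27.5%. PBS against untreated had 2 above and 7 below, beside 39.6% and 18.1%. E. coli against PBS had 0 above and 8 below, beside 19.5% and 13.1%. E. coli against untreated had 0 above and 9 below, beside 46.1% and 19.8%. Whether an interval excludes 0 depends in part on a gene's counts. With library totals 8 of 10 were lowest after E. coli and 8 highest untreated. The 4 libraries are single libraries, and the counts describe them and not the conditions.

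Ratios within a library do not depend on how libraries are scaled, so the members were also set against Myh11. Per 1000 counts of Myh11, Des had 673 counts in the untreated library (exact 95% interval 666 to 681), 756 in PBS (745 to 768), 756 in E. coli (747 to 765) and 876 in LGG (866 to 885). Tagln had 662, 801, 775 and 908 counts per 1000 of Myh11 in the same order of libraries, and Cnn1 had 392, 474, 472 and 565. These genes thus stood lowest against Myh11 in the untreated library, at an intermediate value in PBS and E. coli, and highest in LGG, with intervals of the outer values apart. Synpo2 took the opposite order, with 82.8 counts (80.7 to 84.8) untreated, 71.0 (68.3 to 73.7) in PBS, 65.7 (63.7 to 67.8) in E. coli and 63.3 (61.4 to 65.3) in LGG. Acta2 stayed between 669.7 and 697 and Smtn between 118 and 128 counts per 1000 of Myh11. Set against Cnn1, Synpo2 went from 211 counts per 1000 (206 to 216) in the untreated library to 112 (109 to 116) in LGG.

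**Figure D3:**
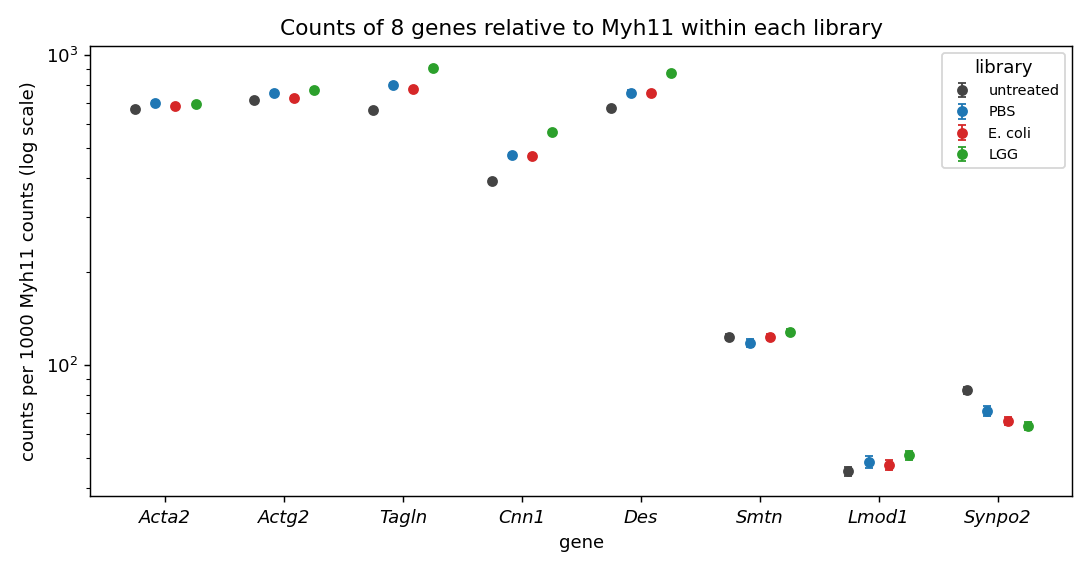
Counts of 8 genes per 1000 counts of Myh11 in the same library (vertical axis, log scale), 1 point per library, with bars for the exact 95% binomial interval, mostly smaller than the points. Tagln, Cnn1 and Des are lowest in the untreated and highest in the LGG library (673 and 876 for Des), Synpo2 is highest untreated at 82.8 and lowest in LGG at 63.3, and Acta2, Actg2, Smtn and Lmod1 vary less.

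Transcript length moved with these differences. The genes that were highest after LGG have short to middling listed transcripts (1579 bases for Tagln, 1978 for Cnn1 and 3054 for Des), and those with the largest negative ratios have long ones (5102 for Myocd and 7109 for Synpo2), although Actg2 is the shortest of all at 1304 bases and Myh11, at 6588, lay near the actins. Over the 10 genes, the correlation of the log2 ratio with log2 length was -0.69 in LGG against untreated (Spearman -0.71) and -0.69 in PBS against untreated (Spearman -0.71). It was -0.62 in LGG against PBS, -0.61 in LGG against E. coli and -0.63 in E. coli against untreated. In E. coli against PBS it was -0.25, with a Spearman value of 0.0061. These are descriptions over 10 genes that share the same libraries. The same order ran through all genes: in LGG against untreated the median log2 ratio was 0.19 for the 1043 genes with transcripts up to 1 kb, 0.09 from 1 to 2 kb, -0.03 from 3 to 4 kb, -0.11 from 5 to 7 kb and -0.15 over 7 kb. In PBS against untreated it ran from 0.06 up to 1 kb to -0.03 over 7 kb, and in LGG against PBS from 0.11 to -0.11. The range was 0.10 to -0.08 in LGG against E. coli and 0.08 to -0.06 in E. coli against untreated. In E. coli against PBS it was 0.01 to -0.02.

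When each gene was set against the median of its own length class, an alternative chosen after seeing the data, the median of the 10 was -0.19 in PBS against untreated, -0.14 in E. coli against PBS, -0.02 in LGG against PBS, 0.10 in LGG against E. coli, -0.24 in LGG against untreated and -0.31 in E. coli against untreated. Synpo2 was then at -0.57 and Myocd at -0.69 in LGG against untreated, while Cnn1 was at 0.10, Des at 0.07 and Tagln at 0.03. The split between these genes was thus smaller than without the adjustment and kept its direction.

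**Figure D4:**
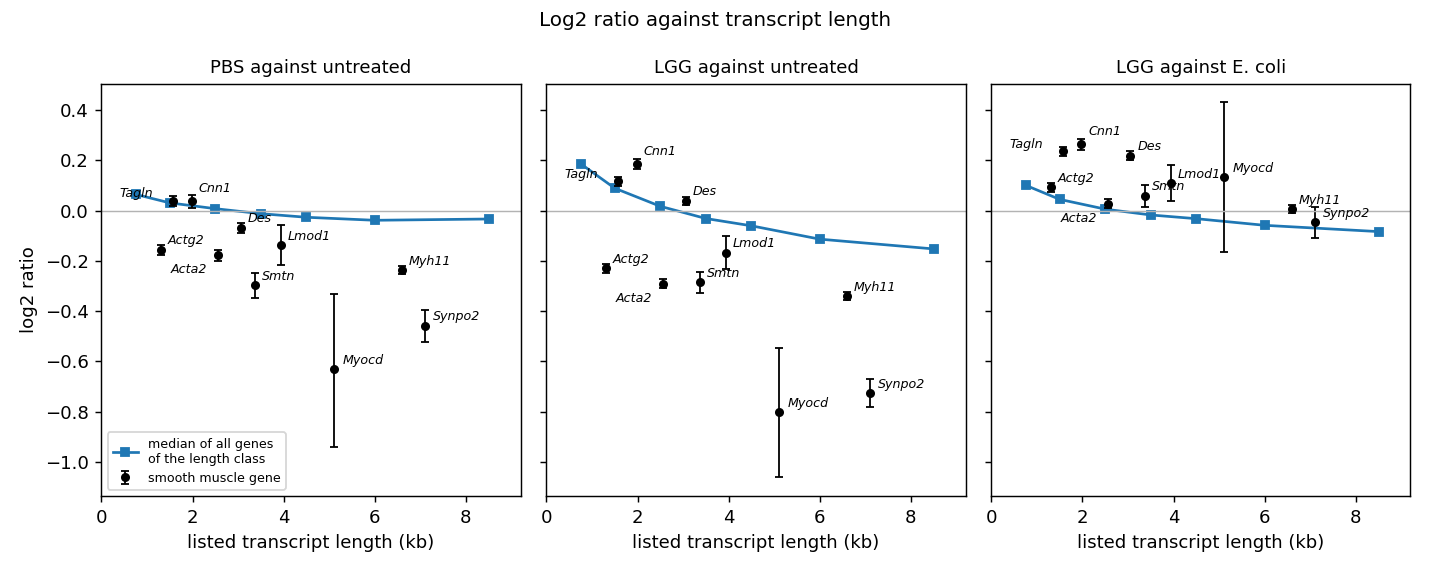
Log2 ratio (vertical axis) against listed transcript length in kb for the 10 genes, with 95% counting intervals, in 3 comparisons; blue squares mark the median of all genes in 7 length classes, placed near the middle of each class. In LGG against untreated the class medians go from 0.19 to -0.15 with length, and Synpo2 and Myocd lie below them by 0.57 and 0.69.

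The other parts of the contractile machinery were read from lists of genes. Ratios of these and the later lists were not adjusted for transcript length, and the lists differ in it. Listed lengths reach 16706 bases among the contraction signalling genes and 4395 among the epithelial genes. In the list of 22 further smooth muscle cytoskeleton genes, 16 had intervals below 0 and 1 above in E. coli against PBS (median -0.10), beside 8.93% and 10% of all genes. In PBS against untreated 15 were below and 5 above (-0.09), beside 18.3% and 20.3% of all genes. In LGG against PBS 10 were below and 4 above (-0.04), beside 13.1% and 14.3%, and in LGG against E. coli 3 were below and 12 above (0.09), beside 16.2% and 16.4%. Against the untreated library 16 were below and 3 above after LGG (-0.15), beside 23.0% and 24.7%, and 17 below and 3 above after E. coli (-0.20), beside 22.4% and 24.9%. None passed the 2-fold rule in any of the 6 comparisons. Tpm1, a tropomyosin that lies along the thin filament, was at 1598 CPM untreated, 1381 in PBS, 1253 in E. coli and 1393 in LGG, close to the order of the actins. Flna, the actin cross-linker filamin A, was at 2027, 1918, 1655 and 1646 CPM in the same order. Another pair was added after the values were seen: Mylk, which encodes myosin light chain kinase, was at 1269.9, 1025, 913 and 987 CPM, and Myl9, the regulatory light chain it phosphorylates, at 949, 871, 817 and 909 CPM. Both were highest untreated and lowest after E. coli.

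Contraction is set by receptors, calcium channels and the kinases and phosphatases that act on myosin. Of 27 such genes, 13 had intervals below 0 and 2 above in PBS against untreated (median -0.20), beside 18.3% and 20.3% of all genes, and 12 below and 2 above in E. coli against PBS (-0.10), beside 8.93% and 10%. In LGG against PBS 8 were below and 4 above (-0.05), beside 13.1% and 14.3% of all genes, and in LGG against E. coli 5 below and 7 above (0.04), beside 16.2% and 16.4%. The 4 above in the first of these pairs and the 5 below in the other lay near the share of all genes. Against the untreated library the counts were 17 below and 3 above after LGG (-0.36), beside 23.0% and 24.7% of all genes, and 21 below and 2 above after E. coli (-0.33), beside 22.4% and 24.9%, and none passed the 2-fold rule in any comparison. Ppp1cb, a catalytic subunit of myosin phosphatase that is expressed in most cell types, was at 468, 468, 442 and 488 CPM in the untreated, PBS, E. coli and LGG libraries.

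The list of 14 measured transcription factors of smooth muscle did not share the low E. coli level of the contractile genes. In E. coli against PBS none had an interval below 0 and 4 had one above (median 0.06), beside 8.93% and 10% of all genes, and in LGG against E. coli 7 were below and 2 above (-0.10), beside 16.2% and 16.4%. In PBS against untreated 5 were below and 2 above (-0.12), beside 18.3% and 20.3%, and in LGG against PBS 1 below and 4 above (-0.04), beside 13.1% and 14.3%. Against the untreated library 5 were below and 1 above after LGG (-0.03), beside 23.0% and 24.7%, and 5 below and 5 above after E. coli (-0.05), beside 22.4% and 24.9%. Srf, serum response factor itself, was at 95.9, 90.1, 89.8 and 94.0 CPM in the untreated, PBS, E. coli and LGG libraries, so its level varied far less than that of its coactivator Myocd. Klf4, a factor that represses contractile genes in cultured muscle cells and is abundant in colon epithelium, was at 679, 694, 768 and 721 CPM. Barx1 was below 1 CPM and was not summarised.

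Markers of other cells in the wall also differed between the libraries, and those of the epithelium were higher where the muscle genes were lower against the untreated library. The 12 epithelial genes, all with a mean above 1 CPM, summed to 17156 CPM in the untreated library, 19941 in PBS, 19771 in E. coli and 20968 in LGG, while the 10 contractile genes summed to 12792, 11748, 10717 and 11704. In PBS against untreated 11 of the 12 epithelial intervals were above 0 (median 0.22), as they were in LGG (0.25) and E. coli (0.19) against untreated. Of all genes 20.3%, 24.7% and 24.9% had such an interval in the same order. Among genes with a mean of at least 50 CPM, which all 12 reach, the shares were 39.6%, 46.0% and 46.1%. The exception among the 12 in each comparison was Cdx2, an intestinal transcription factor named here after its values were seen. It was at 236 CPM untreated and 149, 148 and 225 in PBS, E. coli and LGG. Krt8, a keratin of simple epithelia, was at 4447 CPM untreated and 5283, 5069 and 5471 in PBS, E. coli and LGG, and Lgals4, a galectin, at 3327 and then 3890.4, 3993 and 4097. In E. coli against PBS 3 epithelial intervals were below 0 and 3 above (median -0.0048), beside 8.93% and 10% of all genes. The lower contractile genes of that pair thus went with no higher epithelial sum. In LGG against PBS 9 were above and 1 below (0.09), beside 14.3% and 13.1% of all genes. In LGG against E. coli 10 were above and 1 below (0.09), beside 16.4% and 16.2%. The part of tissue composition in the muscle ratios was not tested.

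Cells that lie within or beside the muscle coat also had lower levels in the gavaged libraries. The 14 enteric neuron and glia genes summed to 219 CPM untreated, 174 in PBS, 148 in E. coli and 172 in LGG, with medians of -0.39, -0.60 and -0.33 against untreated for PBS, E. coli and LGG. Gfap, a glial filament gene, passed the 2-fold rule in E. coli against untreated, at -1.03 (-1.37 to -0.71), as 2.35% of all genes did. Of 4 markers of interstitial cells of Cajal, the pacemakers of gut muscle, 3 had intervals below 0 in each gavaged library against untreated. Beside them stood 18.3% of all genes in PBS, 22.4% in E. coli and 23.0% in LGG. Kit was at 138, 98.7, 94.2 and 104 CPM in the untreated, PBS, E. coli and LGG libraries. The fourth, Ano1, a chloride channel, was at 163, 183, 202 and 165 CPM. Pdgfra was at 128, 100.2, 97.9 and 102 CPM and P2ry1 at 48.1, 39.0, 38.2 and 40.4 CPM. All 3 genes of the PDGFRA-positive interstitial cell list were lower in every gavaged library (medians -0.30 in PBS, -0.32 in LGG and -0.38 in E. coli). Of all genes 49.7%, 50.3% and 49.0% had a ratio below 0 in the same order.

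Vessel walls hold the same contractile genes, so mural and endothelial markers were read as well. The 8 pericyte and vascular mural genes summed to 479 CPM untreated, 374 in PBS, 336 in E. coli and 342 in LGG. All 8 ratios were below 0 in each gavaged library against untreated (medians -0.16, -0.27 and -0.42 for PBS, E. coli and LGG). Of all genes 49.7%, 49.0% and 50.3% had a ratio below 0 in the same order. Rgs5, a pericyte regulator of G protein signalling, was at 171 CPM untreated and 99.6, 86.7 and 108 in PBS, E. coli and LGG, and Mcam at 106 and then 99.7, 87.6 and 83.4. The endothelial list summed to 180.2, 164, 167 and 145 CPM in the untreated, PBS, E. coli and LGG libraries, with Pecam1 at 47.3, 42.6, 43.9 and 36.9 CPM and Eng at 44.6, 41.1, 41.6 and 37.0 CPM. The endothelial sum was thus lowest after LGG, where that of the contractile genes was lowest after E. coli. Fibroblast genes also differed in order, with Col3a1 at 1154, 912, 1028 and 944 CPM and Col1a2 at 476, 434, 504 and 417, and a median of 0.12 in E. coli against PBS.

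The outer coverings of the colon differed most. The 5 mesothelial genes summed to 35.1 CPM untreated, 29.97 in PBS, 12.4 in E. coli and 18.3 in LGG. All 5 passed the 2-fold rule on the lower side in E. coli against PBS, where 0.415% of all genes passed it in either direction. Wt1 was at -1.36 (-2.34 to -0.46), Lrrn4 at -1.32 (-1.91 to -0.76) and Upk3b at -1.30 (-1.66 to -0.95). Wt1 rests on low levels, at 1.62 CPM in PBS and 0.62 in E. coli. Adipocyte genes summed to 93.8, 64.7, 33.7 and 84.5 CPM in the untreated, PBS, E. coli and LGG libraries. In LGG against E. coli 5 of 5 passed the rule as higher, where 0.360% of all genes passed it in either direction. Among them were Lep at 2.23 (1.33 to 3.37), Plin1 at 1.90 (1.39 to 2.47) and Cfd at 1.32 (1.17 to 1.47). Lep rests on low levels, at 0.38 CPM in E. coli and 1.85 in LGG. Both lists were lowest in the E. coli library, as the contractile genes were, and the part of the trimming of the piece in any of these levels was not tested.

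Striated muscle, which shares Des with smooth muscle, was read from 19 listed genes. Of these 11 had a mean below 1 CPM, among them the myosins Myh1, Myh4 and Myh7 and the factors Myod1 and Myog. The list still summed to 84.6 to 87.7 CPM in the 4 libraries. Tnni1 made up 20.4 CPM of it untreated, 38.8 in PBS, 43.1 in E. coli and 34.0 in LGG. Past the 2-fold rule in PBS against untreated, as 1.45% of all genes were, were the actin Actc1 and Neb, the nebulin of striated thin filaments. Actc1, at 2.38 CPM untreated and 1.06 in PBS, had a log2 ratio of -1.15 (-2.03 to -0.39). Neb, at 0.74 CPM untreated and 1.56 in PBS, had one of 1.06 (0.19 to 1.99). Tnni1, a slow troponin, passed it in E. coli against untreated at 1.08 (0.94 to 1.22), as 2.35% of all genes did. Actc1, at 1.03 CPM in E. coli, passed it there on the lower side, at -1.19 (-1.88 to -0.57). Of the cytoplasmic actins, present in every cell, Actb was at 3561, 3819, 3562 and 3879 CPM and Actg1 at 2545, 2925, 2830.0 and 2856 CPM in the untreated, PBS, E. coli and LGG libraries, so neither was highest untreated, as Acta2 and Actg2 were. Both were lower in E. coli than in PBS, by ratios of -0.10 for Actb and -0.05 for Actg1, and the untreated and E. coli levels of Actb did not differ beyond counting error.

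**Figure D5:**
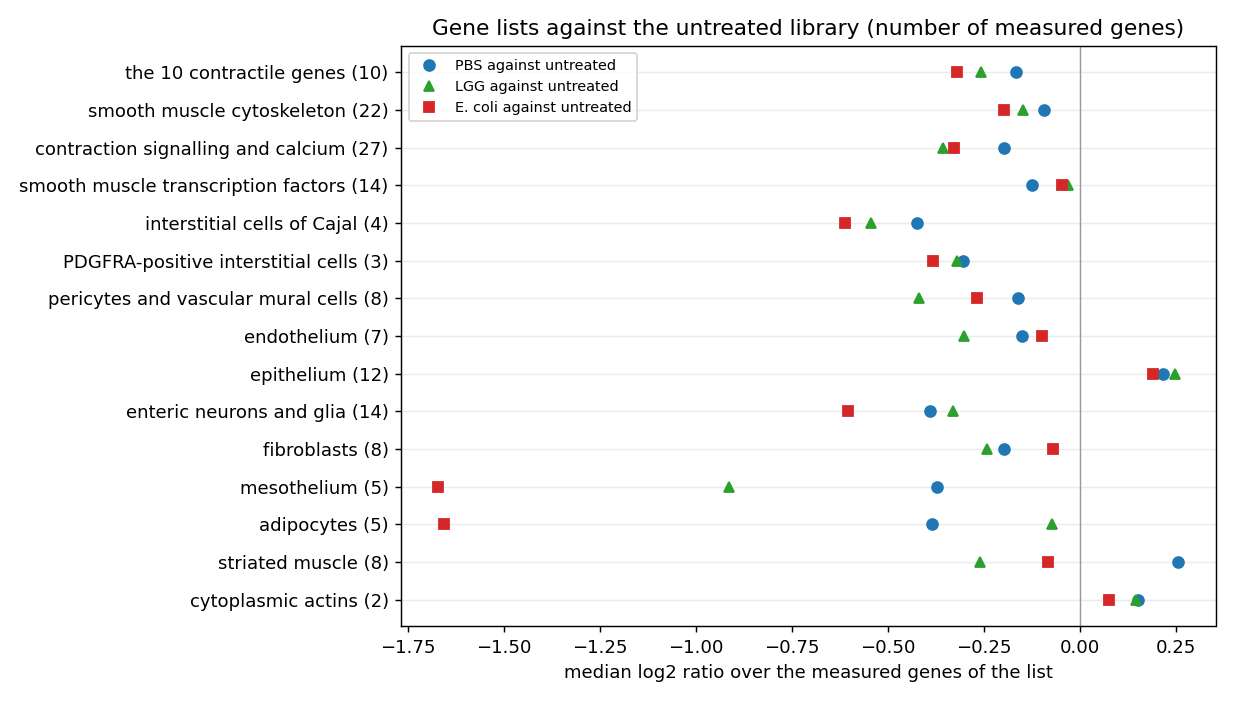
Median log2 ratio (horizontal axis) of the 10 contractile genes and of 14 gene lists in PBS, LGG and E. coli against the untreated library, with the number of measured genes in brackets. The contractile genes lie at -0.17, -0.26 and -0.32, epithelial genes lie above 0 in all 3, and mesothelial genes have the lowest median, at -1.67 after E. coli.

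Genes with the most similar profile were sought by the root mean square difference over the 4 libraries between a gene's centred log2 CPM and the median profile of the 10 genes (0.19 untreated, 0.0046 in PBS, -0.13 in E. coli and -0.05 in LGG). Actg2 was the member closest to that profile, at 0.013, and Myocd the farthest, at 0.24. Among 9854 other named coding genes with a mean of at least 10 CPM, the closest were Sema3a (0.0053), Mri1 (0.0080), Bcap29 (0.0097), Ncald (0.010) and Amot (0.011), none of them on the lists used here. In all 715 genes, or 7.26%, were closer to the profile than the median member was, so the shape over 4 libraries is not particular to muscle genes.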

How the data were processed

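RNA from the colon of germ-free mice was sequenced in 4 libraries, 1 per condition. The authors deposited 1 table of estimated counts per RefSeq gene in mm9, in steps of 0.5 (per the file's values). TopHat2 and HOMER are named in the submitters' processing notes, with no version or role. Nothing in the sources used here states the use of strand or how steps of 0.5 arose. A wrongly shared read could shift the levels of similar genes.

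Counts were rounded to whole numbers and scaled with TMM factors (edgeR 4.0.16, R 4.3.3) of 1.049 (untreated), 0.985 (PBS), 0.989 (E. coli) and 0.979 (LGG). Log2 ratios used 0.5 added counts, scaled by depth, and were computed with scipy 1.17.1 and numpy 2.4.6 under Python 3.11.15. Intervals are exact conditional binomial (Clopper-Pearson) intervals at 95%. Whether the reads carry molecular identifiers is not known here. Amplified reads without them are not independent molecules, and intervals cover counting error only. The ratio and interval code was tested on simulated data. All genes were processed together, and shares of all genes refer to the 14450 genes with a mean of at least 1 CPM. "Measured" genes of a list are those above that mean.

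Members were taken by symbol. The members, lists and comparisons were chosen with earlier results of these data known. The text names all members, up to 3 genes per list past the 2-fold rule or else its 2 most abundant, and the 5 genes most like the members' median profile. Other genes are marked as chosen after their values were seen. Alternatives were DESeq2 1.42.0 size factors, library totals, upper-quartile factors, no filter or a mean of at least 50 CPM, a prior of 5 counts, unrounded counts, a 1.5-fold threshold and, added later, centring on genes of like transcript length. Sequences came from GENCODE M21 and RefSeq GRCm38.p6, and no coordinate was converted between builds. One gene that the naming rule selects is not reported here.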

Additional observations from a re-analysis of the deposited data

How the results depend on the processing

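No median of the 10 ratios left the range set by the medians of their interval bounds, and no count moved by more than 1.5 times, with DESeq2 size factors, upper-quartile factors, no filter, a mean of at least 50 CPM, a prior of 5 counts and unrounded counts. Library totals moved the median of all genes by up to -0.099 (LGG against untreated). With them the median of the 10 was -0.26 in PBS, -0.36 in LGG and -0.40 in E. coli against untreated. Intervals above 0 went from 2 to 0 genes in PBS against untreated and from 3 to 1 in LGG against untreated, 1 gene instead of 0 had an interval below 0 in LGG against E. coli, and 1 gene instead of 0 passed the 2-fold rule in E. coli against untreated. Under library totals 3 single ratios changed sign: Tagln (-0.052) and Cnn1 (-0.053) in PBS against untreated and Des (-0.061) in LGG against untreated. The cause was not tested. Centring on genes of like transcript length left 0 instead of 2 intervals above 0 in PBS against untreated. At 1.5-fold, 1 gene passed in PBS, 2 in LGG and 2 in E. coli against untreated, where 0 passed 2-fold. No paired analysis was possible because each condition has 1 library. Among the 10 genes depth limits Myocd most, with 124 to 342 counts. Some genes of the other lists were lower still, such as Lep at 0.38 CPM in E. coli. No result has a replicate check, so animal, piece and condition cannot be told apart.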

Other observations

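Some genes of the muscle lists had other orders of the 4 libraries than most contractile genes, and all genes named here were chosen after their values were seen. Flnc, the muscle filamin, was highest in the PBS library, at 319 CPM beside 201 untreated, 238 in E. coli and 215 in LGG. Its log2 ratio was 0.67 in PBS against untreated and -0.57 in LGG against PBS. Its transcript is listed at 9116 bases, and genes over 7 kb had medians of -0.03 and -0.11 in the same order. Chrm2, the M2 muscarinic receptor, was also highest in PBS, at 15.3 CPM, beside 11.8 untreated, 10.8 in E. coli and 8.95 in LGG. Synpo, the paralogue of Synpo2, had its lowest level in the untreated library, at 83.0 CPM, and was at 116 in PBS, 134 in E. coli and 105 in LGG, whereas Synpo2 was highest untreated. Both were lower in LGG than in PBS. Ppp1r14a, an inhibitor of myosin phosphatase, was at 30.1 CPM untreated, 20.3 in PBS, 26.6 in E. coli and 30.8 in LGG, so that its lowest library was PBS. Pln, which restrains the calcium pump of the sarcoplasmic reticulum, was at 31.5, 23.9, 22.4 and 29.8 CPM in the untreated, PBS, E. coli and LGG libraries, higher in LGG than in E. coli by 0.41, as Tagln, Cnn1 and Des were by 0.22 to 0.26. Its order otherwise followed most contractile genes in being highest untreated and lowest after E. coli. Both ends lay within counting error of the next library. LGG against untreated was at -0.08 (-0.21 to 0.06) and E. coli against PBS at -0.09 (-0.28 to 0.09).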
